A study of Mus musculus with 9 samples.

Results

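P7C3-A20 was compared with its vehicle, DMSO, in mouse neural stem cells that had been moved to a medium allowing differentiation. The comparison covered every gene row with a TPM (reads per gene length, scaled so that every library has the same total) of at least 1 in at least 3 of the 6 libraries concerned, which were 13612 of the 23420 rows of the table. The cells came from the hippocampus of 2-day-old wild type C57BL/6J mice, were expanded in culture and then kept in medium lacking bFGF and EGF, the growth factors that hold such cells in division. There were 3 libraries from cells given DMSO and 3 from cells given 3 µM P7C3-A20 in this medium. Another group of 3 libraries from cells given 3 µM NAT, a small molecule known here only by that name, shared the statistical fit and was used for 1 direct comparison.

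P7C3-A20 is an aminopropyl carbazole known for raising the survival of newborn neurons in the hippocampus, and its reported target is NAMPT, which carries out the slowest step in rebuilding NAD from nicotinamide. NAD carries electrons in energy metabolism and is consumed by sirtuins and by poly(ADP-ribose) polymerases. Hippocampal neural stem cells deprived of growth factors slow their division and give rise to astrocytes, oligodendrocytes and neurons. Notch effectors such as Hes5 and proneural factors set the balance between the progenitor state and differentiation.

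The libraries held 12028821 to 14109316 reads with DMSO and 15885313 to 17217584 with P7C3-A20, recovered from the steps between low TPM values. Genes with at least 1 read numbered 16553 to 16750 with DMSO and 16917 to 17118 with P7C3-A20, so every P7C3-A20 library was deeper and listed more genes than any DMSO library. Their part in the comparison was not tested. Markers were checked against the label. All 29 neural progenitor genes in the table were measured, and their summed level was 23060 to 23354 TPM with DMSO and 21204 to 22316 TPM with P7C3-A20. Of 20 microglial markers 3 were measured, among them Cd68 and P2ry12, with summed levels of 78.1 to 81.6 TPM with DMSO and 79.5 to 82.0 TPM with P7C3-A20, and Cx3cr1 and Trem2 had no read in any of the 6 libraries. Of 16 endothelial markers 5 were measured (61.0 to 65.0 TPM with DMSO and 59.7 to 68.6 TPM with P7C3-A20), with Cdh5 and Cldn5 at 0. Of 20 markers of pericytes, fibroblasts and meninges 6 were measured, among them Pdgfra and Cspg4, which are also on the list of oligodendrocyte precursors. All 20 together summed to 199.6 to 205.5 TPM with DMSO and 186.9 to 213.3 TPM with P7C3-A20. Pdgfrb, Col1a1 and Col3a1 were below the level for testing, and Dcn and the haemoglobin genes were at 0.

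Gene levels followed the GC content of the transcript differently in the 2 groups, which touches every result that follows. The slope of a library's deviation from the 6-library mean (without NAT) was computed over 11281 genes, as log2 per 10 points of GC. It was -0.0716, -0.0389 and -0.0200 for DMSO replicates 1, 2 and 3. The P7C3-A20 replicates stood at 0.0009, 0.0228 and 0.1068, all above the DMSO libraries, with replicate 3 the steepest. The median log2 fold change (P7C3-A20 over DMSO, on the log2(TPM + 1) scale) climbed through 5 equal bins of genes by GC content, from -0.0608 in the bin with the lowest GC over -0.0204, 0.0132 and 0.0544 to 0.1018 in the highest. In the lowest bin, all 3 P7C3-A20 libraries lay above all 3 DMSO libraries for 2.48% of genes and below them for 18.8%. In the highest bin these shares were 28.5% and 1.41%. After the trend was removed as described next, the shares were 7.90% and 9.12% in the lowest bin and 9.57% and 7.30% in the highest. Results are therefore given both as deposited and with each library's trend with GC content removed, and gene lists are set against the 500 tested genes nearest in GC content to each member.

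**Figure D1:**
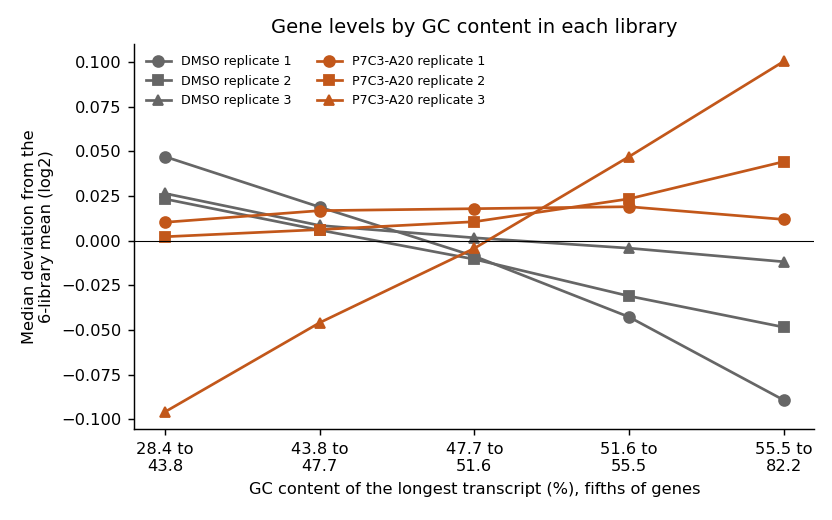
The plot gives, for each library, the median deviation of genes from their mean over the 6 libraries (log2, vertical axis) in 5 equal bins of genes ordered by GC content of the longest transcript (percent, horizontal axis), with DMSO in grey, P7C3-A20 in orange and a marker shape for each replicate. The DMSO lines slope down and the P7C3-A20 lines run level or up, reaching 0.1003 in P7C3-A20 replicate 3 and -0.0892 in DMSO replicate 1 in the bin with the highest GC.

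Few genes passed the test, and most differences were small. In limma's moderated test 3 genes passed an adjusted p of 0.05 (Benjamini-Hochberg over 13612 genes). These were 0.022% of the genes tested, 1 higher (0.00735%) and 2 lower (0.0147%). Without adjustment 2185 genes had a limma p under 0.05. With the GC trend removed 2 genes passed limma's adjusted threshold (0.0148%), 0 higher (0.0%) and 2 lower (0.0148%). An unadjusted limma p under 0.05 was then found for 766 genes that were higher (5.68%) and 745 that were lower (5.53%). The median log2 fold change was 0.015 as deposited and -0.0015 with the trend removed. Among the 11386 genes with a mean of at least 5 TPM in either group, 95% of log2 fold changes with the trend removed lay between -0.19 and 0.20.

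The gene that rose was C1ql1, which encodes a secreted C1q-like protein that organises synapses and is made by oligodendrocyte precursors and some neurons. Its level was 45.9, 48.6 and 49.8 TPM in the DMSO libraries and 65.5, 63.1 and 60.3 TPM in the P7C3-A20 libraries. The groups did not overlap, and the lowest P7C3-A20 library stood well above the highest DMSO library. The log2 fold change was 0.38 ± 0.05 (SE, 95% interval 0.27 to 0.49, n = 3 and 3), with a limma adjusted p of 0.0449. C1ql1 has a GC content of 65.8%. Its log2 fold change became 0.27 (0.16 to 0.38) once the GC trend was removed, where it no longer passed limma (adjusted p 0.221) or voom (0.0612).

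The genes that fell were the microRNA genes Mir149 and Mir365-2, and their calls rest on single reads. Both rows held 1 read per DMSO library and 0 reads in the P7C3-A20 and NAT libraries, which is why no fold is given (limma adjusted p 0.000417 and 0.00779, and 0.153 and 0.189 in voom with the GC trend removed). RefSeq (GRCm38.p6) places Mir149 on the plus strand of chromosome 1 and Mir365-2 on the plus strand of chromosome 11, and the mature sequences are printed to identify the called rows, with the seed (bases 2 to 8, the part that pairs with target transcripts) in capitals.
miR-149-5p (chr1:92850381-92850403): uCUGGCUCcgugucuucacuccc
miR-149-3p (chr1:92850421-92850442): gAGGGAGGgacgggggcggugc
miR-365-2-5p (chr11:79726428-79726450): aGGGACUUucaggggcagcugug
miR-365-3p (chr11:79726467-79726488): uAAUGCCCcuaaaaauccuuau
The 4 seeds differ from each other, so the rows share no seed family. Other microRNA and small nucleolar RNA rows with large apparent differences rested on similarly few reads. Mir28b had 0 reads in the DMSO libraries and 2, 4 and 3 with P7C3-A20, and Mir721 had 1, 2 and 2 with DMSO and 0 with P7C3-A20, while Mir3104 had 1 in each DMSO library and 0 with P7C3-A20. The best supported row of this kind was Snord99, a small nucleolar RNA, with 1, 0 and 0 reads with DMSO and 7, 6 and 6 with P7C3-A20 and an adjusted p of 0.136 in limma and 0.0359 in voom with the GC trend removed. It had 1, 4 and 3 reads with NAT.

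A count of genes whose groups did not overlap gives a wider view. All P7C3-A20 libraries lay above all DMSO libraries for 1806 genes (13.3% of those tested) and below them for 1029 (7.56%), together 20.8%. With the GC trend removed the counts were 1101 higher (8.17%) and 1088 lower (8.07%), together 16.2%, so the excess of higher genes was no longer there. These shares are the background for the list counts below. Without P7C3-A20 replicate 3, the library with the steepest GC slope, 4210 genes as deposited and 3755 with the trend removed did not overlap, a comparison of fewer libraries.

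Voom, limma's count-based fit, was also run on the recovered reads. It called 269 genes (1.98%), of which 159 were higher (1.17%) and 110 lower (0.808%). Once the GC trend was removed it called 36 (0.267%), 23 of them higher (0.171%) and 13 lower (0.0964%). Of the 269 and the 36, 25 genes were common to both. For all 36, the libraries did not overlap with the trend removed. The calls depended on single libraries: 0 of the 36 passed without DMSO replicate 1, 3 without DMSO replicate 2 and 4 without P7C3-A20 replicate 2, against 26, 27 and 33 without P7C3-A20 replicate 1, DMSO replicate 3 and P7C3-A20 replicate 3. The number passing at least 3 of these 6 fits was 19. The genes described next are named by their p-values with the GC trend removed and by these voom calls. Those named by p-value over all genes were picked only among genes whose groups were apart both as deposited and with the trend removed.

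**Figure D2:**
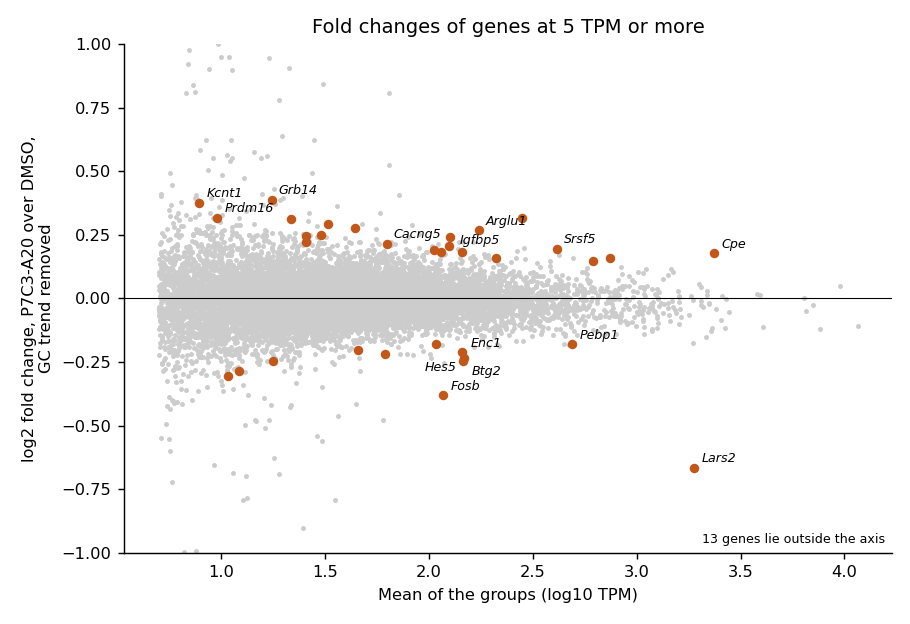
Each point is a gene with a mean of at least 5 TPM, with the mean of the groups on a log10 scale (horizontal axis) and the log2 fold change of P7C3-A20 over DMSO with the GC trend removed (vertical axis), and orange points mark genes called by voom with that trend removed. Of 11276 genes plotted 13 lie outside the axis, among them Snord99 at 3.60, which is counted in the 35 genes called by voom. These 35 also include Lars2 at -0.67, Fosb at -0.38, Kcnt1 at 0.38 and Grb14 at 0.39.

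Voom with the GC trend removed called Igfbp5, Igfbp4 and Grb14 higher with P7C3-A20. Igfbp5, which binds insulin-like growth factors in the extracellular space, stood at 107, 119 and 118 TPM with DMSO and 142, 141 and 132 TPM with P7C3-A20. Its relative Igfbp4 stood at 109, 119 and 112 TPM with DMSO and 131, 136 and 145 TPM with P7C3-A20. Neither gene's groups overlapped. With the GC trend removed the log2 fold change of Igfbp5 was 0.24 (limma adjusted p 0.221, voom 0.0104) and that of Igfbp4 0.21 (limma adjusted p 0.221, voom 0.0377). Grb14, an adaptor that dampens insulin receptor signalling, went from 15.4 ± 1.07 to 19.5 ± 0.717 TPM (SD, n = 3), a log2 fold change of 0.33 that was 0.39 with the GC trend removed (voom adjusted p 0.0408). The insulin-like growth factor list as a whole showed no common direction. Of 15 measured members, Igfbp4 and Igfbp5 included, 6 lay above the genes of like GC content. With the trend removed 3 did not overlap upward and 4 downward, where 8.17% and 8.07% of all genes did. Grb10, a close relative of Grb14, was at 21.3 ± 0.846 TPM with DMSO and 19.1 ± 1.27 TPM with P7C3-A20.

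The same fit called Cpe, Cacng5, Kcnt1, Tpcn1, Atp6v0a1 and Ttyh1 higher. Cpe, the carboxypeptidase that trims prohormones and neuropeptide precursors and is abundant in astrocytes and neuroendocrine cells, stood at 2103, 2180 and 2292 TPM with DMSO and 2516, 2547 and 2463 TPM with P7C3-A20. The groups did not overlap, the log2 fold change was 0.20 (limma adjusted p 0.136), and with the GC trend removed 0.18 (limma adjusted p 0.224, voom 0.0112). Cpxm1, a member of the same carboxypeptidase family, was at 51.7 ± 2.22 and 63.5 ± 3.10 TPM, with a log2 fold change of 0.29 that was 0.21 with the trend removed, and passed neither limma (adjusted p 0.221) nor voom (0.0521) there. Cacng5, an auxiliary subunit of AMPA-type glutamate receptors, had 57.3, 55.6 and 58.1 TPM with DMSO and 68.9, 67.1 and 67.9 TPM with P7C3-A20, a narrow spread in each group and a log2 fold change of 0.22 with the trend removed (voom adjusted p 0.0292). Kcnt1, a sodium-activated potassium channel, went from 6.50 ± 1.01 to 9.14 ± 0.324 TPM. Tpcn1, a cation channel of endosomes and lysosomes, went from 95.4 ± 6.97 to 115 ± 1.67 TPM, and Atp6v0a1, a subunit of the proton pump that acidifies them, from 108 ± 4.49 to 122 ± 3.10 TPM. The membrane channel gene Ttyh1, high in radial glia and astrocytes, went from 580 ± 26.9 to 654 ± 9.15 TPM. Voom with the trend removed called Kcnt1, Tpcn1, Atp6v0a1 and Ttyh1 at an adjusted p of 0.0408 each.

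Tyro3 and Sirpa, a pair of cell surface receptors, had small p-values but passed neither limma nor voom with the GC trend removed. Tyro3, a receptor kinase of the TAM family that promotes survival and engulfment, stood at 75.5, 77.0 and 78.8 TPM with DMSO and 87.7, 88.9 and 92.2 TPM with P7C3-A20. Sirpa, the inhibitory receptor for Cd47, stood at 40.7, 43.2 and 43.6 TPM with DMSO and 50.4, 51.3 and 50.2 TPM with P7C3-A20. The groups did not overlap for either gene. Tyro3 had a log2 fold change of 0.21, or 0.14 with the GC trend removed, and Sirpa 0.25, or 0.19, and neither passed limma (adjusted p 0.136 as deposited and 0.221 with the trend removed, for each) or voom with the trend removed (0.0976 and 0.0521).

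**Figure D3:**
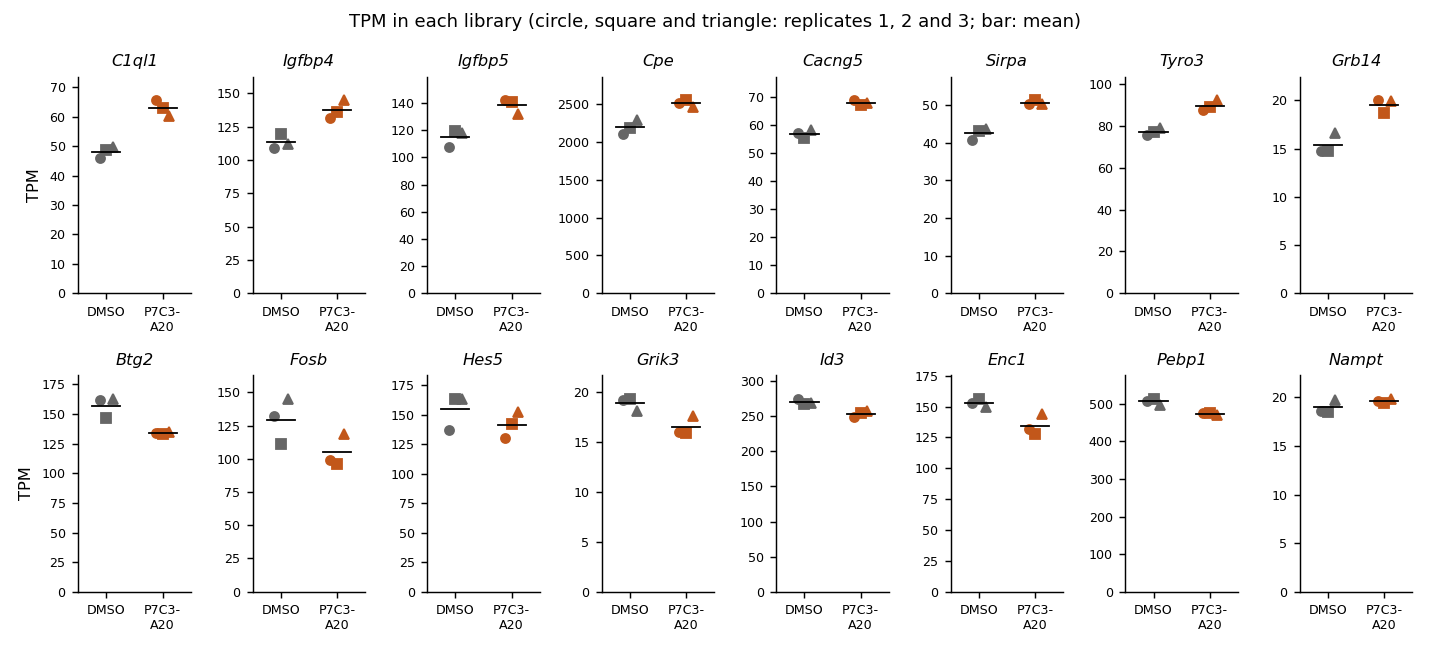
TPM as deposited (vertical axis, starting at 0) in each DMSO library (grey) and P7C3-A20 library (orange) for 16 genes, with a marker shape for each replicate and a bar at the mean. The upper row holds genes with higher means with P7C3-A20, and the lower row holds 7 genes with lower means and Nampt, whose groups overlap between 19.4 and 19.8 TPM.

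Voom with the GC trend removed also called Arglu1, Srsf5, Prdm16, Nat10, Tox and Arhgef1 higher. Arglu1, an arginine-rich splicing and transcription cofactor, stood at 154, 151 and 177 TPM with DMSO and 185, 184 and 188 TPM with P7C3-A20, and Srsf5, a serine- and arginine-rich splicing factor, at 376, 392 and 411 TPM with DMSO and 431, 430 and 433 TPM with P7C3-A20. With the trend removed their log2 fold changes were 0.27 and 0.19, with voom adjusted p-values of 0.0220 and 0.0292. Prdm16, a chromatin regulator that maintains neural stem cells, went from 8.27 ± 1.16 to 10.9 ± 0.222 TPM, and Nat10, an RNA acetyltransferase, from a range of 22.2 to 24.3 TPM to one of 27.9 to 28.6 TPM. Tox, an HMG-box factor of neural progenitors, stood at 17.9 to 20.9 TPM with DMSO and 23.2 to 24.6 TPM with P7C3-A20. These 3 genes had voom adjusted p-values of 0.0292, 0.0377 and 0.0408 with the trend removed. Arhgef1, an exchange factor that activates a small GTPase of the cytoskeleton, was at 38.0 ± 3.02 and 49.9 ± 3.56 TPM (0.28 with the trend removed, voom adjusted p 0.0220). Clk1, a kinase that phosphorylates splicing factors, lay on the other side, at 75.6, 77.0 and 86.4 TPM with DMSO and 64.9, 63.8 and 67.5 TPM with P7C3-A20. Its log2 fold change was -0.28, or -0.22 with the GC trend removed, and it passed neither limma (adjusted p 0.304 with the trend removed) nor voom (0.0901).

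Among the genes that voom with the GC trend removed called lower were Btg2, Fosb and Hes5. Btg2, an antiproliferative cofactor induced by growth factors and by p53, stood at 162, 147 and 163 TPM with DMSO and 134, 133 and 135 TPM with P7C3-A20. The groups did not overlap, and the P7C3-A20 libraries lay close together. The log2 fold change was -0.23 ± 0.04 (SE, limma adjusted p 0.136) and -0.25 (95% interval -0.34 to -0.15, limma adjusted p 0.221, voom 0.00764) with the GC trend removed. Fosb, a subunit of the AP-1 factor, stood at 132, 111 and 145 TPM with DMSO and 98.9, 96.3 and 119 TPM with P7C3-A20, where P7C3-A20 replicate 3 lay above DMSO replicate 2. Its log2 fold change was -0.30 ± 0.10 as deposited and -0.38 (-0.59 to -0.17) with the trend removed, where the groups separated (limma adjusted p 0.269, voom 0.00764). When each of the 6 libraries was left out in turn, voom with the trend removed still called Btg2 in 5 fits and Fosb in 4, with adjusted p-values of up to 0.109 for both.

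Hes5, the effector through which Notch keeps progenitors undifferentiated, stood at 137, 163 and 163 TPM with DMSO and 130, 142 and 152 TPM with P7C3-A20. The groups overlapped as deposited, with a log2 fold change of -0.12 ± 0.07. Hes5 has a GC content of 62.1%, and with the trend removed the groups separated at -0.23 (-0.35 to -0.12, limma adjusted p 0.233, voom 0.0377). With a library left out voom called Hes5 in only 1 of 6 fits, with an adjusted p of up to 0.207. Id3, an inhibitor of basic helix-loop-helix factors induced by BMP, stood at 275, 267 and 268 TPM with DMSO and 249, 254 and 258 TPM with P7C3-A20. The groups did not overlap. With the trend removed Id3 was at -0.17 (-0.23 to -0.10, limma adjusted p 0.221, voom 0.0612).

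The promoters of Btg2, Fosb and Hes5 are printed because voom called these 3 regulators lower with the GC trend removed. Each is the 250 bases before the transcription start in RefSeq (GRCm38.p6), written 5′ to 3′ on the gene's strand, with capitals for matches to the cAMP response element TGACGTCA, or to GTGGGAA, the core bound by the Notch partner Rbpj. Both motifs were searched on both strands, where the latter reads TTCCCAC on the other one.
Btg2 (chr1:134079156-134079405, minus strand): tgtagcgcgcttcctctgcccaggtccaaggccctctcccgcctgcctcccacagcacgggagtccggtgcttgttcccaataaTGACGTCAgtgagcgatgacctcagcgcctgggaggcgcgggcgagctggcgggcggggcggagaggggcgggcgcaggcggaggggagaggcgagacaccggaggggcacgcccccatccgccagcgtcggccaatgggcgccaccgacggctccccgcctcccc
Fosb (chr7:19310046-19310295, minus strand): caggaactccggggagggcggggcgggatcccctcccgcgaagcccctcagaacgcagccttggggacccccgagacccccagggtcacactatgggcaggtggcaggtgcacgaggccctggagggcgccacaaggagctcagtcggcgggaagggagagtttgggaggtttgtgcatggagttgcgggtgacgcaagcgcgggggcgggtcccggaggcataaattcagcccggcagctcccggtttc
Hes5 (chr4:154960673-154960922, plus strand): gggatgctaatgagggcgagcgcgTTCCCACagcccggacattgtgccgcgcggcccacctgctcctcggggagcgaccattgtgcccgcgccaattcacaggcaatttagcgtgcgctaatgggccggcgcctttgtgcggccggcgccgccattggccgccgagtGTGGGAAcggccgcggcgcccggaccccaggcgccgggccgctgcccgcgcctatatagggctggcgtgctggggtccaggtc
The Btg2 window held 1 match of TGACGTCA, 166 bases before the start, and Hes5 held 2 matches of GTGGGAA, 83 and 226 bases before it, while the letters of neither motif occur in the Fosb window. No match overlapped another. Of 27025 RefSeq promoters of that length, 1.62% held TGACGTCA and 5.41% held GTGGGAA. The matches describe these windows and no binding was measured. GC content was 73.2%, 68.8% and 71.6% in the 3 windows.

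Other lower genes had different roles. Enc1, an actin-binding protein of developing neurons, stood at 153, 156 and 149 TPM with DMSO and 131, 128 and 144 TPM with P7C3-A20, and Pebp1, an inhibitor of Raf signalling, at 506, 513 and 498 TPM with DMSO and 474, 476 and 470 TPM with P7C3-A20. With the trend removed they were at -0.21 (voom adjusted p 0.0220) and -0.18 (0.0292). Amotl2, a junction protein of the Hippo pathway, Grik3, a kainate receptor subunit, and Ppp1r10, a nuclear subunit of protein phosphatase 1, were at -0.22, -0.25 and -0.20 with the trend removed, with voom adjusted p-values of 0.0292, 0.0292 and 0.0377. Car10, a carbonic anhydrase relative that binds neurexins, was low throughout, at 4.22, 3.64 and 3.58 TPM with DMSO and 2.40, 2.61 and 1.61 TPM with P7C3-A20, and none of its libraries overlapped.

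Lars2, the mitochondrial leucyl-tRNA synthetase, was among the abundant genes that voom called lower. Its level was 2652, 2330 and 1905 TPM with DMSO and 1863, 1114 and 1510 TPM with P7C3-A20, groups that met closely between DMSO replicate 3 and P7C3-A20 replicate 1. The log2 fold change was -0.64 ± 0.17 (limma adjusted p 0.158), and -0.67 with the GC trend removed (limma adjusted p 0.270, voom 0.00764). Rn45s, the precursor of ribosomal RNA, was at 21845, 21699 and 17228 TPM with DMSO and 14304, 7947 and 14996 TPM with P7C3-A20, and its groups did not overlap either (log2 fold change -0.75, limma adjusted p 0.171). The part of ribosomal RNA reads in the Lars2 difference was not tested.

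No gene of NAD synthesis, the pathway of the reported target of P7C3-A20, passed limma or voom with the GC trend removed. Nampt stood at 18.6, 18.5 and 19.8 TPM with DMSO and 19.6, 19.4 and 19.9 TPM with P7C3-A20, at 360 to 452 and 513 to 548 reads. The groups overlapped. The log2 fold change was 0.05 (95% interval -0.10 to 0.19, limma adjusted p 0.756), and 0.11 (-0.03 to 0.25, limma adjusted p 0.563) with the GC trend removed, where the groups just separated. Of the 11 measured genes 7 were positive. With the GC trend removed 2 did not overlap upward (Nampt and Naprt1) and 1 downward (Pnp), where 8.17% and 8.07% of all genes did. The list median by library, with the trend removed and relative to the DMSO mean, was 0.0080, 0.0623 and 0.0348 with P7C3-A20 and at most -0.0023 with DMSO, so the groups separated, by little in replicate 1, and it was between 0.0066 and 0.0688 with a library left out. Naprt1, which starts NAD synthesis from nicotinic acid, was at 11.6, 12.2 and 12.2 TPM with DMSO and 13.1, 13.1 and 15.1 TPM with P7C3-A20, and Pnp, which cleaves nicotinamide riboside and other nucleosides, at 43.4, 42.1 and 44.2 TPM with DMSO and 41.3, 40.6 and 39.5 TPM with P7C3-A20. Pnp has a near-identical neighbour, so its reads may be shared. The enzymes that complete NAD from its mononucleotide were at log2 fold changes of -0.10 (Nmnat1, nuclear), -0.02 (Nmnat2, of axons and Golgi) and 0.14 (Nmnat3, mitochondrial). Nadsyn1 was at 0.02, the riboside kinase Nmrk1 at 0.10, the NAD kinase Nadk at -0.00 and the mitochondrial NAD carrier Slc25a51 at 0.04. Afmid, of the pathway from tryptophan, was at 8.92 ± 0.342 TPM with DMSO and 10.8 ± 1.09 TPM with P7C3-A20. Of this list, Qprt, Kmo, Kynu, Haao, Ido1, Tdo2 and Nmrk2 were below the level for testing.

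Genes that consume NAD varied in both directions. Of 25 measured none was called by limma or by voom with the GC trend removed, and 12 lay above genes of like GC content. With the trend removed 4 did not overlap upward and 4 downward, where 8.17% and 8.07% of all genes did. Sirt2, a deacetylase of the cytoplasm abundant in oligodendrocytes, stood at 225, 242 and 248 TPM with DMSO and 263, 273 and 267 TPM with P7C3-A20, a log2 fold change of 0.17 that was 0.11 with the trend removed (limma adjusted p 0.346). Parp8, a mono-ADP-ribosyltransferase, was at 0.10 as deposited and 0.15 with the trend removed, and Sirt4, a mitochondrial sirtuin, at 0.29 and 0.24. Sirt1, the nuclear deacetylase, was at -0.08 and the damage sensor Parp1 at -0.02, while Sarm1, the NAD hydrolase that drives axon degeneration, was at 0.08. The groups of Parp1 and Sarm1 overlapped, while those of Sirt1, at 21.8 to 22.2 TPM with DMSO and 20.4 to 20.9 TPM with P7C3-A20, did so only with the GC trend removed. The 4 members apart on the lower side were Parp9, Parp11 and the tankyrases Tnks and Tnks2.

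Lineage genes were then compared as lists. In bulk samples, fewer cells of a type and less RNA per cell cannot be told apart. Of the 37 measured astrocyte genes, 10 did not overlap upward and 1 downward as deposited, and 5 and 2 with the GC trend removed. Over all genes the shares were 13.3% and 7.56% as deposited, and 8.17% and 8.07% with the trend removed. A total of 23 lay above the 500 genes of like GC content, and the median difference from these was 0.037 on the log2 scale. By library, with the trend removed and relative to the DMSO mean, the list median was 0.0499, 0.0751 and -0.0068 in P7C3-A20 replicates 1, 2 and 3 and up to 0.0442 with DMSO, so the groups overlapped, and it was between 0.0005 and 0.0636 with a library left out. Ntsr2, a neurotensin receptor of astrocytes, went from 50.5 ± 4.20 to 61.2 ± 2.37 TPM (0.23 with the trend removed). Bcan, a proteoglycan of the glial matrix, went from 770 ± 57.5 to 903 ± 24.9 TPM (0.12 with the trend removed, against 0.23 before), and Hepacam, a glial adhesion protein, from 360 ± 19.5 to 407 ± 12.2 TPM (0.13, against 0.18). Gfap, the filament of mature and reactive astrocytes, overlapped between groups, at 787, 768 and 909 TPM with DMSO and 928, 927 and 807 TPM with P7C3-A20. Dio2, which activates thyroid hormone, was at 30.8, 29.9 and 30.6 TPM with DMSO and 29.8, 28.7 and 18.9 TPM with P7C3-A20, so the lower mean came mainly from replicate 3.

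The oligodendrocyte lineage was covered by a list for each stage. Among 23 measured genes of myelinating oligodendrocytes, 17 lay above genes of like GC content with a median difference of 0.092. With the trend removed 7 did not overlap upward and 2 downward, where 8.17% and 8.07% of all genes did. This list had the highest median difference of the lists with at least 10 measured members. Myrf, the factor that switches on myelin genes, stood at 7.28, 9.02 and 8.82 TPM with DMSO and 12.4, 10.8 and 10.6 TPM with P7C3-A20. Mbp, a major protein of compact myelin, was low, at 3.45, 3.97 and 4.12 TPM with DMSO and 4.78, 4.94 and 4.62 TPM with P7C3-A20. Neither overlapped, with log2 fold changes of 0.30 and 0.23 with the trend removed and limma adjusted p-values of 0.381 and 0.429. Nkx6-2, a homeobox factor of the lineage, went from 6.46 ± 0.455 to 8.40 ± 0.596 TPM, and Enpp6, an enzyme of newly formed oligodendrocytes, was at 2.54, 3.51 and 2.53 TPM with DMSO and 5.56, 5.31 and 2.60 TPM with P7C3-A20, with replicate 3 among the controls. Enpp2, a secreted lysophospholipase that makes lysophosphatidic acid, was among the members that did not overlap downward, at 303 and 284 TPM on average. Mag, Mog, Mobp and Opalin, markers of fully mature cells, were below the level for testing.

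The 24 measured genes of oligodendrocyte precursors lay mostly below genes of like GC content. Of these 7 were above genes of like GC content, with a median difference of -0.048. With the trend removed 1 did not overlap upward (C1ql1) and 4 downward (among them Olig2, Sox6 and Sox5), where 8.17% and 8.07% of all genes did. Pdgfra, the growth factor receptor that defines these cells, stood at 105, 95.6 and 102 TPM with DMSO and 89.4, 86.8 and 104 TPM with P7C3-A20, and the groups overlapped. Sox6, a factor that restrains maturation, was at 138, 135 and 134 TPM with DMSO and 131, 125 and 129 TPM with P7C3-A20. Olig2 was at 818, 812 and 842 TPM with DMSO and 793, 821 and 881 TPM with P7C3-A20, overlapping as deposited, and at -0.09 with the trend removed. Bcas1, of newly forming myelin, was at 18.3 to 28.3 TPM with DMSO and 29.8 ± 4.41 TPM with P7C3-A20, with overlap. As list medians per library with the trend removed, the precursors stood at -0.0528, -0.0875 and 0.0343 in P7C3-A20 replicates 1, 2 and 3 relative to the DMSO mean, so replicate 3 was above all DMSO libraries. The myelinating list stood at 0.0754, 0.0264 and 0.0993, above the highest DMSO library at 0.0249 by little in replicate 2.

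**Figure D4:**
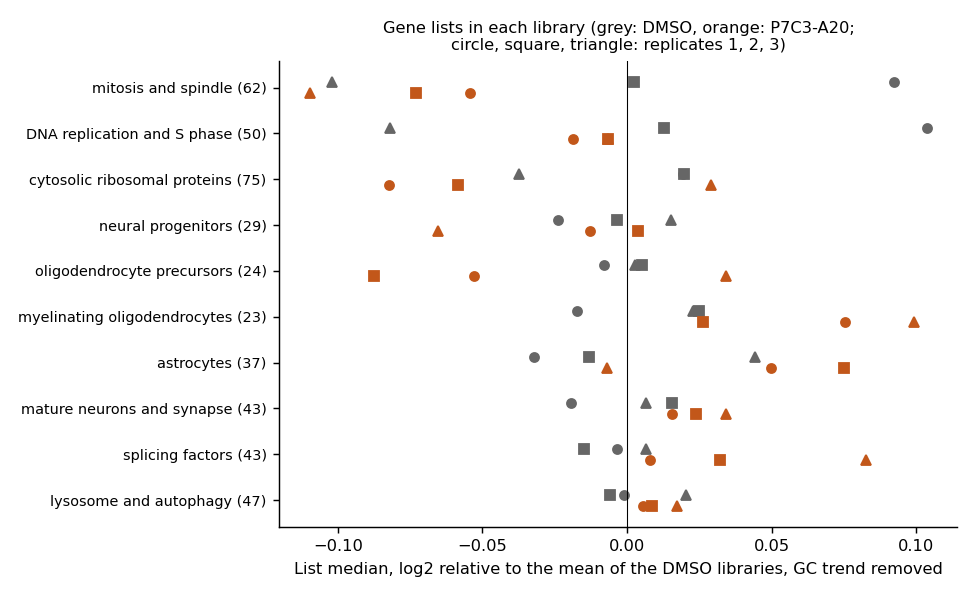
Each point is the median of a gene list in a library (log2 relative to the mean of the DMSO libraries, GC trend removed, horizontal axis), with DMSO in grey, P7C3-A20 in orange, a marker shape for each replicate and the number of genes in brackets. The groups separate for myelinating oligodendrocytes and splicing factors and overlap for the other 8 lists, and DMSO replicates 1 and 3 lie far apart for mitosis, at 0.0923 and -0.1022.

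Lists of progenitors and neurons had medians nearer 0. Of 29 progenitor genes 13 lay above genes of like GC content. With the trend removed, where 8.17% of all genes did not overlap upward and 8.07% downward, 0 did so upward and 5 downward. Among these were Hes5 and Id3, described above, with Hes1, another Notch effector, and Fabp7, the fatty acid binding protein of radial glia. Fabp7 was among the most abundant messages, at 12327, 12411 and 11868 TPM with DMSO and 11236, 10924 and 10636 TPM with P7C3-A20, with a log2 fold change of -0.16, or -0.11 with the trend removed (limma adjusted p 0.380). Sox2, Vim and Pax6, which mark the same cells, were at 0.06, 0.01 and 0.04. Of 31 genes of neuroblasts and young neurons 11 lay above genes of like GC content (median difference -0.026), with 3 not overlapping upward and 3 downward. As deposited 14 were positive and 17 negative, and the members of this list named next are from the lower side. Dcx, a microtubule protein of migrating neuroblasts, overlapped at 26.8 ± 0.930 and 25.1 ± 2.74 TPM, Dpysl3, a growth cone protein, was at -0.13 with the trend removed and the proneural factor Neurog2, at 2.85 ± 0.0195 and 2.09 ± 0.0415 TPM, at -0.40. Of 43 genes of mature neurons and synapses 27 lay above genes of like GC content (median difference 0.021), with 5 not overlapping upward and 1 downward. Camk2b, a synaptic calmodulin kinase subunit, was at 81.4, 85.0 and 84.7 TPM with DMSO and 94.9, 94.9 and 96.9 TPM with P7C3-A20 (0.13 with the trend removed), and Dlg4, the postsynaptic scaffold PSD-95, went from 64.7 ± 2.24 to 73.1 ± 3.74 TPM (0.18). Among other lists of cell types, the ciliogenesis factor Foxj1 of ependymal cells went from 17.1 ± 1.10 to 22.1 ± 1.30 TPM, at 0.35 as deposited and 0.24 with the trend removed (limma adjusted p 0.221).

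Cell division genes were compared by phase. Of 62 measured genes of mitosis and the spindle 51 were negative and 51 lay below genes of like GC content, with a median difference of -0.079, the lowest of the lists with at least 10 measured members. With the trend removed 0 did not overlap upward and 7 downward, where 8.17% and 8.07% of all genes did. An unadjusted limma p under 0.05 was found for 11, all lower, where 5.53% of all genes had one and were lower. Kif2c, a microtubule depolymerase of the centromere, stood at 52.4, 49.8 and 46.3 TPM with DMSO and 46.1, 41.3 and 40.4 TPM with P7C3-A20, and Cenpf, a kinetochore protein, at 68.4, 63.5 and 59.9 TPM with DMSO and 59.1, 55.7 and 50.9 TPM with P7C3-A20. In both, DMSO replicate 3 and P7C3-A20 replicate 1 almost met. Mki67, the standard marker of cycling cells, overlapped, at 196, 174 and 162 TPM with DMSO and 167, 151 and 143 TPM with P7C3-A20. No mitosis gene passed limma (adjusted p 0.277 for Kif2c with the trend removed) or voom with the trend removed. As a list the mitosis genes had medians of 0.0923, 0.0025 and -0.1022 in DMSO replicates 1, 2 and 3 and of -0.0542, -0.0730 and -0.1096 in the P7C3-A20 replicates, so the DMSO libraries spread more widely than the groups differed. Leaving out each of the 6 libraries in turn gave list medians between -0.1382 and -0.0310.

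The 50 genes of DNA replication and S phase had a median near that of other genes, with 26 above genes of like GC content. Their median difference was 0.011. With the trend removed 2 did not overlap upward and 1 downward, where 8.17% and 8.07% of all genes did. Pcna, the sliding clamp of DNA polymerase, was at 216 ± 7.44 and 215 ± 9.80 TPM, and Mcm3, of the replicative helicase, at 48.9 ± 5.19 and 48.6 ± 1.00 TPM. Ccne1, the cyclin of S phase entry, was at 16.4 ± 0.510 and 18.7 ± 1.23 TPM without overlap. Of the cell cycle inhibitors, Cdkn1a, the p53-induced p21, stood at 181, 193 and 192 TPM with DMSO and 208, 209 and 218 TPM with P7C3-A20 (0.16, or 0.10 with the trend removed), Cdkn1c, p57, went from 20.6 ± 1.69 to 25.7 ± 2.13 TPM (0.20 with the trend removed), and Cdkn2c, p18, was at -0.23 with the trend removed. Their 17 members had 8 above genes of like GC content.

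Immediate early genes were compared as a list that holds Btg2 and Fosb. Of 32 measured 9 lay above genes of like GC content (median difference -0.024). With the trend removed, where 8.17% of all genes did not overlap upward and 8.07% downward, 0 did so upward and 4 downward. Besides Btg2 and Fosb these were Klf4, a Krüppel-like factor at 8.58 ± 0.820 and 6.82 ± 0.992 TPM, and Ctgf, a Hippo pathway target at 1.28 ± 0.142 and 0.821 ± 0.0853 TPM. Fos and Egr1, the most abundant members, were at -0.04 and 0.10, or at -0.08 and 0.01 with the trend removed. Klf6 was at 55.9 ± 3.27 and 48.0 ± 1.19 TPM (-0.22, and -0.17 with the trend removed).

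Ribosomal protein genes lay mostly below and splicing factor genes mostly above genes of like GC content. Of 75 measured cytosolic ribosomal protein genes 52 lay below genes of like GC content, with a median difference of -0.039. With the trend removed 1 did not overlap upward and 15 downward, where 8.07% of all genes did the latter, and 16 had an unadjusted limma p under 0.05 and were lower. Rpl23a stood at 850, 812 and 838 TPM with DMSO and 778, 746 and 764 TPM with P7C3-A20, and Rpl38 at 483, 489 and 478 TPM with DMSO and 442, 456 and 471 TPM with P7C3-A20. No member passed limma (adjusted p 0.269 for both with the trend removed) or voom with the trend removed. These genes have many near-identical pseudogenes between which reads could be split. By library the list stood at -0.0824, -0.0583 and 0.0290 in the P7C3-A20 replicates, and replicate 3 lay above every DMSO library. Of 43 splicing factors 32 lay above genes of like GC content (median difference 0.049). With the trend removed 6 did not overlap upward and 2 downward, where 8.17% and 8.07% of all genes did. Beside Srsf5, Srsf6 went from 187 ± 8.03 to 202 ± 5.91 TPM and Luc7l3 from 184 to 199 TPM on average, while Mbnl2, a regulator of splicing in maturing neurons, was at 74.3 and 69.6 TPM. The library medians of this list, 0.0079, 0.0323 and 0.0828 with P7C3-A20 and up to 0.0065 with DMSO, separated narrowly.

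The 7 lists that follow had median differences from genes of like GC content between -0.019 and 0.030. Of 73 oxidative phosphorylation genes 30 lay above (median difference -0.018). With the trend removed 4 did not overlap upward and 9 downward, where 8.17% and 8.07% of all genes did. Slc25a3, the mitochondrial phosphate carrier that feeds ATP synthase and is no member of that list, went from 716 ± 10.0 to 778 ± 14.5 TPM (0.16 with the trend removed, voom adjusted p 0.0408). Of 32 genes of mitochondrial biogenesis and dynamics 22 lay above (0.027), among them the fusion protein gene Mfn1 at 178 ± 0.597 and 186 ± 2.42 TPM and the protease gene Lonp1 at 83.4 ± 1.96 and 94.3 ± 2.91 TPM. Glycolysis and hypoxia genes had 13 of 35 above, where Pdk2, a kinase that restrains pyruvate oxidation, went from 74.9 ± 3.91 to 89.6 ± 3.16 TPM and the glycolytic enzyme gene Tpi1 was at -0.12 with the trend removed. Genes of the TCA cycle had 11 of 26 above and those of fatty acid oxidation 9 of 22, with Acadl, the long-chain acyl-CoA dehydrogenase, at 530 to 533 and 540 to 575 TPM. For sterol synthesis it was 18 of 29, led by the reductase gene Tm7sf2 at 52.1 ± 3.59 and 61.8 ± 4.19 TPM. Lysosome and autophagy genes had 29 of 47 above, with 9 not overlapping upward and 4 downward, and beside Atp6v0a1 these included Mcoln1, the lysosomal calcium channel (0.17 with the trend removed), and Grn, progranulin, at 149 ± 7.07 and 177 ± 14.0 TPM. None of the members named in these lists other than Atp6v0a1 passed voom with the trend removed.

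No list of stress or survival genes had a member called by limma or by voom with the GC trend removed, other than Btg2. This gene is among the p53 targets. For apoptosis regulators 9 of 26 lay above genes of like GC content. With the trend removed 0 did not overlap upward and 3 downward, where 8.17% and 8.07% of all genes did. Mcl1, the short-lived survival protein, stood at 141, 141 and 136 TPM with DMSO and 129, 129 and 128 TPM with P7C3-A20 (-0.12 with the trend removed, limma adjusted p 0.224), and Bcl2l11, the death activator Bim, was at 13.4, 15.0 and 16.3 TPM with DMSO and 19.5, 18.5 and 15.9 TPM with P7C3-A20, with overlap. Of 27 p53 targets 16 lay above, with Gdf15, a stress-induced hormone, at 4.52 ± 0.269 TPM with DMSO and 6.63 ± 1.11 TPM with P7C3-A20, without overlap. NRF2 targets had 15 of 28 above. Among them Gsta4, a glutathione transferase for lipid peroxides, was lower at 208, 208 and 210 TPM with DMSO and 192, 193 and 197 TPM with P7C3-A20, and Gstp1, of the same superfamily, higher at 124 ± 4.90 and 145 ± 8.79 TPM. Genes of the integrated stress response had 14 of 35 above, the heat shock list 8 of 24 with its cochaperone gene Bag3 at 42.3 ± 2.04 and 50.3 ± 1.31 TPM, and protein folding in the endoplasmic reticulum 18 of 32. Among 17 neurotrophin and receptor genes 8 lay above. Bdnf, the growth factor of neuronal survival and plasticity, was at 3.47, 4.17 and 3.55 TPM with DMSO and 2.66, 2.85 and 2.66 TPM with P7C3-A20, without overlap and with a log2 fold change of -0.34 (limma adjusted p 0.185), or -0.29 with the trend removed (0.379).

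Some lists looked different before and after GC content was considered. Over all genes, 13.3% did not overlap upward and 7.56% downward as deposited, and 8.17% and 8.07% with the trend removed. Among 46 genes of extracellular matrix and integrins 18 did not overlap upward and 2 downward as deposited, but 8 and 2 with the trend removed. Their median of 0.098 became a difference of 0.026 from genes of like GC content. For 56 axon guidance genes the counts went from 14 upward and 1 downward to 4 and 2, and the median of 0.073 to a difference of 0.019. The Notch list had a positive median of 0.043 as deposited and a difference of -0.021, and the Wnt list went from 0.027 to -0.033. Of 30 Notch genes 8 did not overlap upward and 1 downward as deposited, and 7 and 2 with the trend removed. For 40 Wnt genes the counts were 5 and 1 as deposited, and 3 and 5 with the trend removed. Among the Notch genes that remained apart upward were Rfng, a glycosyltransferase that tunes receptors, and Dner, a neuronal ligand. They were at 0.16 and 0.10 with the trend removed, opposite to Hes5. Tcf7l2 and Tcf7l1, transcription factors at the end of the Wnt pathway, were at 0.19 and 0.15, and the feedback gene Axin2 at -0.16.

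**Figure D5:**
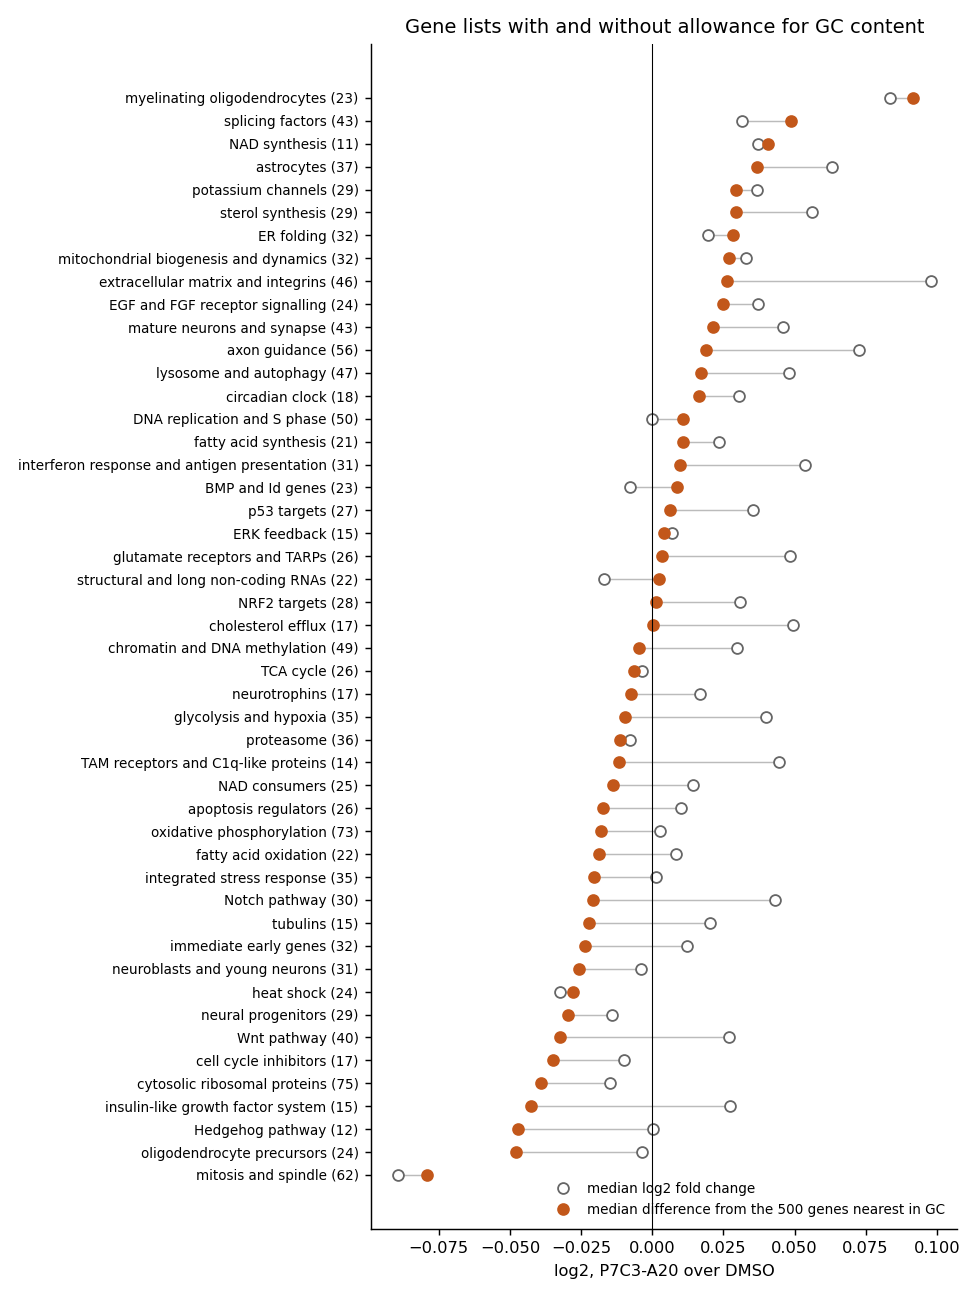
For each gene list with at least 10 measured members (number in brackets), the open circle is the median log2 fold change of P7C3-A20 over DMSO as deposited and the filled circle the median difference of its members from the 500 tested genes nearest in GC content. The filled circles run from -0.079 for mitosis and spindle to 0.092 for myelinating oligodendrocytes, and the extracellular matrix list moves from 0.098 to 0.026.

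P7C3-A20 and NAT, given at the same dose of 3 µM, were compared directly in the same fit, a contrast from which the DMSO libraries cancel. This was the only pair of compounds. No gene passed limma (0.0% of 13612) as deposited or with the GC trend removed, with 2175 and 1600 genes at an unadjusted p under 0.05. Voom with the trend removed called 71 genes (0.527%), 24 higher with P7C3-A20 (0.178%) and 47 lower (0.349%), and 285 with the trend in place. Fosb had 74.5, 68.6 and 78.3 TPM in the NAT libraries, all below the P7C3-A20 libraries. Its difference, P7C3-A20 minus NAT, was 0.44 with the trend removed (95% interval 0.23 to 0.65, limma adjusted p 0.207), and that of Btg2 was 0.16 (0.07 to 0.25, adjusted p 0.255). For C1ql1 it was 0.18 (0.07 to 0.29, adjusted p 0.256). Cenpf was at -0.20 (-0.30 to -0.09, adjusted p 0.254). For Nampt the difference was 0.00 (-0.14 to 0.14) and for Cpe 0.03 (-0.06 to 0.12).

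The list medians of that direct difference, with the trend removed, were 0.11 for immediate early genes, -0.13 for mitosis, -0.12 for S phase, 0.13 for myelinating oligodendrocytes and 0.07 for ribosomal proteins. Against DMSO, which both compounds share as control, mitosis stood at -0.08 with P7C3-A20 and 0.04 with NAT, S phase at 0.01 and 0.12, and immediate early genes at -0.03 and -0.20. For myelinating oligodendrocytes the medians were 0.10 with P7C3-A20 and -0.06 with NAT, and for ribosomal proteins -0.04 and -0.11.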

How the data were processed

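The authors deposited a table of TPM values for 23420 gene symbols in 9 libraries, each column summing to 1000000. Per the labels' protocols, the sequencing libraries came from a TruSeq kit. Per the submitters' processing notes, Bowtie 0.12.2 and the builds mm8 and mm9 were used. The counter and the annotation were not given in the sources used here. Symbols turned into dates (27) were left as they stood.

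Genes with at least 1 TPM in at least 3 of the 6 compared libraries were tested with limma-trend on log2(TPM + 1), two-sided, with all 9 libraries in 1 fit (group only, 6 residual degrees of freedom), adjusted by Benjamini and Hochberg. Errors are SD of libraries or SE of the fit. The labels call libraries biological replicates without saying whether cultures or animals were separate, so p-values reflect only how these libraries vary, which may be technical. A fold on this scale understates changes of low genes. The kit is not stated to mark strand, so antisense or overlapping genes cannot be told apart.

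GC content came from the longest GENCODE transcript of each symbol (GRCm38), found for 98.3% of names and 13484 tested genes. Each library's deviation from the 9-library mean was fitted against GC (spline, 5 degrees of freedom) and subtracted. Whole reads were recovered from the TPM steps for all 19302 genes with any value (100.0%, tolerance 0.001 reads) and used in voom. Fits used limma 3.58.1 in R 4.3.3, and tables used pandas 2.3.3 with Python 3.11.15. The fits were tested on simulated data.

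The comparison and the 53 gene lists were chosen with earlier results of these data known, so lists have no p of their own. Genes were named by rule, 193 in all. They were those called, up to 8 voom calls per direction, 3 members of lowest p per list, and all NAD synthesis genes. Up to 12 per direction of lowest p with the trend removed, at 5 TPM or more, were added. So were the 6 most extreme per direction at 2 TPM or more. The 12 and the 6 came only from genes whose groups were apart both as deposited and with the trend removed. For these genes the lack of overlap was a condition of naming. Further members of the lists (such as Gfap, Pcna, Sirt1, Mki67 and Fos), other voom calls and Rn45s were named after their values were seen. Results for some genes are not reported here.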

Additional observations from a re-analysis of the deposited data

How the results depend on the processing

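The count of 3 called genes for P7C3-A20 against DMSO was 0 with a minimum of 5 TPM or a pseudocount of 0.1, 1 with a minimum of 10 recovered reads (chosen after seeing the data), 5 with the 6 compared libraries alone, 269 with voom and 36 with voom and the GC trend removed. Leaving out each library in turn gave 1 to 9 with limma, and 1 to 6 with the trend removed. Voom with the trend removed then called 0 and 3 genes without DMSO replicates 1 and 2 and 120 without replicate 3, and 49, 6 and 152 without P7C3-A20 replicates 1, 2 and 3. The cause was not tested. For P7C3-A20 against NAT, limma's 0 became 285 with voom and 71 with voom and the trend removed, or 169, 39 and 61 without P7C3-A20 replicates 1, 2 and 3. With the replicate block the counts were 7, 1 with the block and the GC trend removed, and 1 against NAT. Same-numbered DMSO and P7C3-A20 libraries had correlations of deviations of 0.057, -0.023 and -0.026. Those of libraries with different numbers lay between -0.04 and 0.063, and libraries numbered 2 and 3 correlated best with another number. Values this small cannot show or exclude a pairing. Of the values of named genes under the alternatives, 0 reversed a call and 50 lost one, which only the 3 called genes could do. A further 200 gained a call, 4638 kept theirs or moved by less than the spread between libraries and 1063 moved by more. For genes without a call, a change of sign was not counted apart. For list medians 1224 moved by less and 418 by more. Fewer than 5 reads, as in most microRNA rows, cannot show a difference at this depth.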

Other observations

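The lists of chromatin, potassium channel, interferon response and tubulin genes had no member called by limma or by voom with the GC trend removed. Kcnt1, a potassium channel that this voom fit called, is not on the list of channels. Of 49 genes of chromatin and DNA methylation 24 lay above genes of like GC content. Kdm5a, a demethylase of histone H3, stood at 33.6, 33.2 and 33.2 TPM with DMSO and 30.0, 29.1 and 28.7 TPM with P7C3-A20, a separation wider than the spread in either group, with a log2 fold change of -0.14 with the GC trend removed (limma adjusted p 0.277). Of 29 potassium channel genes 18 lay above, and Kcnn2, a calcium-activated channel, went from 77.2 ± 3.73 to 90.8 ± 4.29 TPM. Of 31 interferon and antigen presentation genes 19 lay above, and the class I gene H2-D1, whose reads can be shared with near-identical relatives, went from 13.4 ± 1.67 to 16.6 ± 1.59 TPM. Among 15 tubulins Tubb4a, the isotype of myelinating cells and neurons, went from 37.6 ± 2.73 to 45.0 ± 0.936 TPM and differed from NAT by 0.25 with the trend removed (95% interval 0.14 to 0.36, limma adjusted p 0.203).

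Vax1, a homeobox factor of the ventral forebrain and optic region, had 1, 4 and 2 reads with DMSO, 9, 15 and 14 with P7C3-A20 and 10, 6 and 5 with NAT. The long non-coding RNA Neat1 stood at 26.9, 29.5 and 38.3 TPM with DMSO and 38.3, 35.2 and 48.8 TPM with P7C3-A20, overlapping. Rpph1, the RNA of ribonuclease P, was at 36.0, 35.2 and 28.8 TPM with DMSO and 22.5, 22.8 and 27.8 TPM with P7C3-A20, a log2 fold change of -0.54 with the trend removed (limma adjusted p 0.286).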
